A study of Mus musculus with 30 samples.

Results

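Untreated cultures of primary mouse microglia labelled PD-1 KO, for a knockout of PD-1, were compared with cultures labelled WT, wild type, at 2 h of a time course and without amyloid-beta. Gene expression was measured by RNA sequencing. The comparison takes the 3 PD-1 KO-labelled libraries and the 3 labelled WT at 2 h without amyloid-beta, 6 of the 30 libraries in the study, chosen by genotype, time and treatment alone. The other 24 libraries hold both genotypes at 0 h, at 8 h without amyloid-beta, and at 2 h and 8 h with amyloid-beta given in conditioned medium. The cells came from mouse brain and were harvested by shaking them off the primary culture, and no sort by a surface marker is described. The labels give no strain, age or medium for the untreated cultures, do not describe the knockout allele, and do not state how many animals or cultures stand behind the 3 libraries of a group.

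PD-1, the product of Pdcd1, is an inhibitory receptor best known from T cells, where engagement by its ligands PD-L1 and PD-L2 damps signalling from activating receptors. Microglia are the resident macrophages of the brain: they survey the tissue, take up debris and dying cells through receptors such as TREM2 and the Fc receptors, and degrade it in lysosomes. In culture they lose part of the expression profile they have in the brain and respond within hours to handling and to medium.

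Values below are the deposited signal, which is reads per gene divided by a scale factor of the library and set to at least 1. Differences are log2(value + 1) in PD-1 KO-labelled libraries minus that in WT-labelled libraries, with the standard error from limma. A gene is called higher or lower where its Benjamini-Hochberg adjusted p over all genes tested was below 0.05. The 6 libraries held 4648748 to 48509985 reads over the genes in the file, and the deepest, replicate 2 of the WT-labelled libraries, stood apart, since the next deepest held 11469291. Between 162 and 280 genes lay at the lowest value in WT-labelled libraries, against 42 to 57 in the PD-1 KO-labelled ones. Pairs of replicates differed by more than sampling noise in both groups. Each library was counted as 1 replicate, although such a spread does not show whether the libraries came from separate animals or cultures. Replicates are numbered here by the order of the library numbers in the labels, and the same number in different groups marks no pair.

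The targeted gene was read first. Pdcd1 (chromosome 1, 94038305 to 94052553, GRCm38) lay at the lowest value of 1 in all 3 WT-labelled libraries and at 12.8, 16.4 and 8.19 in the PD-1 KO-labelled ones, from 13, 20 and 4 reads. Against a limit of 3 reads in 1 WT-labelled library, taken in the library where a read is worth most (a value of 3.16), the mean of 12.5 ± 4.14 (SD, n = 3) was at least 3.95-fold higher. The exact two-sided permutation test gave p = 0.1, the smallest value that 3 against 3 allows. In the limma fit the difference was 2.70 ± 0.41 (adjusted p = 9.96e-06). Its size depends on the floor and pseudocount and ran from 1.01 to 5.59 over the alternative settings. In each other condition the WT-labelled libraries also lay at 1, and the PD-1 KO-labelled means ran from 9.54 at 0 h to 20.7 at 8 h without amyloid-beta. The direction goes against the labels, and values per gene do not show whether the reads fall in the part of Pdcd1 that was targeted. All groups are therefore named as labelled, and every direction below depends on those labels. Cd274, which encodes the ligand PD-L1, did not pass (0.25 ± 0.13, adjusted p = 0.134).

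Of 13722 genes tested, 4412 (32.2%) differed between the groups: 2580 (18.8%) were higher and 1832 (13.4%) lower in PD-1 KO-labelled libraries. With the authors' scaling large differences were mostly on the higher side. Among the called genes 857 were higher by more than 2 on the log2 scale and 23 lower by as much, and past 1 the numbers were 1645 and 161. Of the calls 58.5% were higher with the authors' scaling and 42.3% with quantile normalization, which placed the median of all genes at -0.10 against 0.01. The values of the 3 libraries of each group did not overlap for 6286 genes (45.8%). Counts of list members below are to be read beside the percentages of all genes, and a list with a similar share of calls shows no more than the genes as a whole did. Among the lists, those of cilia, astrocytes and myelin had the highest medians, and the ribosomal and interferon-stimulated lists the lowest.

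**Figure D1:**
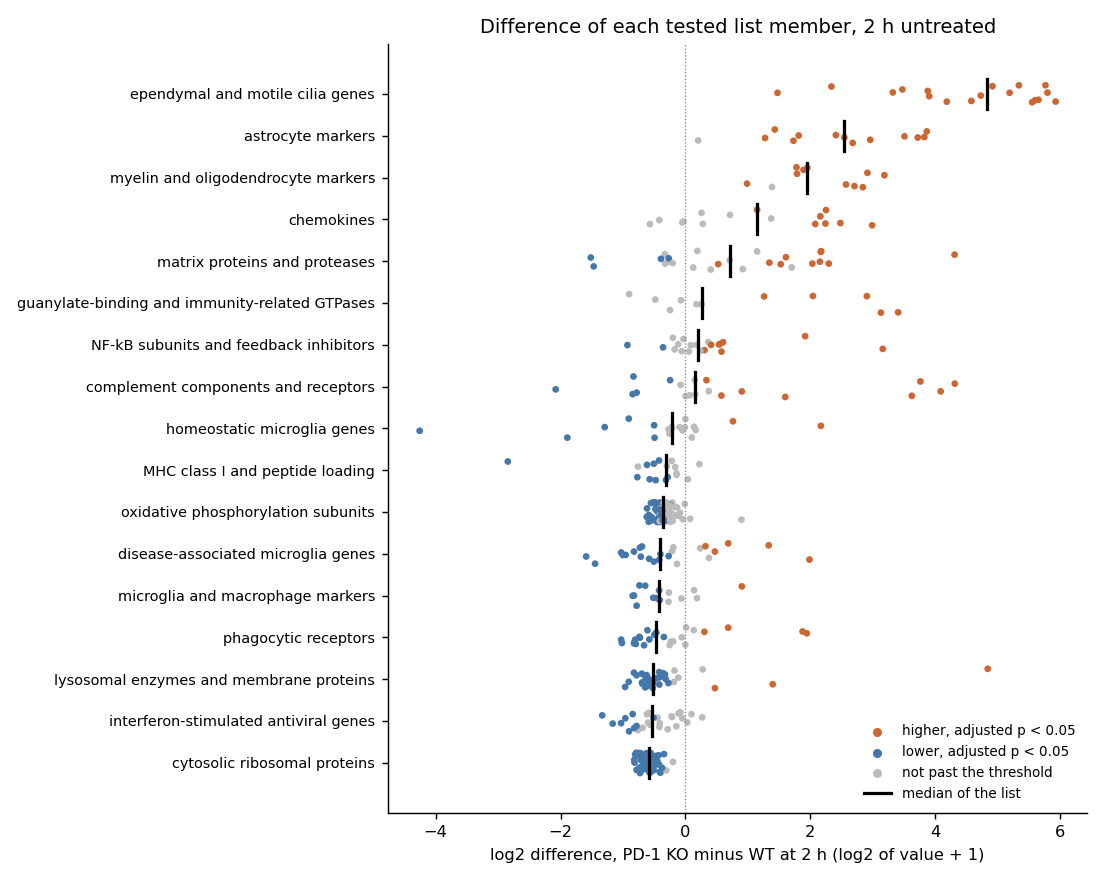
Difference between PD-1 KO-labelled libraries and WT at 2 h without amyloid-beta for the tested members of 17 gene lists, on the horizontal axis as log2(value + 1). Each point is 1 gene, orange where called higher, blue where called lower and grey otherwise, and black bars are list medians. The lists of motile cilia genes (median 4.82), astrocyte markers (2.55) and myelin markers (1.95) lie far to the right, and the ribosomal (-0.59), lysosomal (-0.52) and phagocytic (-0.47) lists lie left of 0.

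The cultures held transcripts of other brain cells, at different levels in the groups. Of 18 tested genes of motile cilia, the beating hairs of the ependymal cells that line the ventricles, 18 were higher in PD-1 KO-labelled libraries (17 with quantile normalization), with a median of 4.82. Dnah6, a heavy chain of the dynein motor that bends cilia, read 7.42, 5.86 and 12.6 in the WT-labelled libraries and 319, 656 and 643 in the PD-1 KO-labelled ones. Rsph4a, part of the radial spoke, read 6.49, 3.61 and 7.37 in the WT-labelled libraries and 294, 520.1 and 424 in the PD-1 KO-labelled ones. All 3 PD-1 KO-labelled libraries lay far above all 3 labelled WT for both genes, which came out at 5.80 ± 0.68 and 5.93 ± 0.60. The dyneins Dnah5 (5.60 ± 0.79) and Dnah9 (4.92 ± 0.58), the adenylate kinase Ak7 of the axoneme (5.63 ± 0.67) and Cfap44 (5.19 ± 0.66) followed. The summed value of the cilia list was 5304 (3572 to 6669) in PD-1 KO-labelled libraries and 248 (242 to 260) in the WT-labelled ones, a 21.4-fold difference.

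Of 13 astrocyte markers 12 were higher and 0 lower, with a median of 2.55. Gfap, the intermediate filament of astrocytes, read 568, 333 and 478 in the WT-labelled libraries and 4995, 8354 and 6205 in the PD-1 KO-labelled ones. Gja1, the astrocytic gap junction protein connexin 43, read 136, 75.5 and 107 in the WT-labelled libraries and 1136, 2081 and 1488 in the PD-1 KO-labelled ones. The lowest library labelled PD-1 KO exceeded the highest labelled WT for both, with differences of 3.82 ± 0.34 and 3.87 ± 0.35. Aqp4, the water channel of astrocytic end feet, was higher by 3.72 ± 0.30. Glul, glutamine synthetase, was the 1 marker not called (0.20 ± 0.10, adjusted p = 0.123). The summed astrocyte markers were 3.43-fold higher (25302, range 20533 to 30446, against 7372, range 6438 to 8041).

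Of 11 markers of myelinating oligodendrocytes 10 were higher and 0 lower, with a median of 1.95. Mog, a surface protein of the outer myelin layer, read 10.2, 17.4 and 11.6 in the WT-labelled libraries and 134, 119 and 119 in the PD-1 KO-labelled ones (3.19 ± 0.33), and Mag, the adhesion protein that faces the axon, read 35.2, 68.9 and 69.5 in the WT-labelled libraries and 406, 374 and 429.8 in the PD-1 KO-labelled ones (2.84 ± 0.24). Ermn, a cytoskeletal protein of mature oligodendrocytes, was higher by 2.91 ± 0.43. The summed myelin markers were 3.90-fold higher (8140 against 2086) and had narrow ranges in both groups, 7851 to 8306 against 1983 to 2232. Precursor markers of the same lineage were more often lower: of 10 tested 5 were lower and 2 higher, with a median of -0.53. Their summed value was 4392 (4369 to 4420) in PD-1 KO-labelled libraries and 5052 (4240 to 5641) in the WT-labelled ones, and these ranges overlapped. Pdgfra, the growth factor receptor that defines oligodendrocyte precursors, read 862, 776 and 922 in the WT-labelled libraries and 383, 253 and 346 in the PD-1 KO-labelled ones (-1.40 ± 0.37). Gpr17, a receptor of committed precursors, stood at -2.31 ± 0.70, but lay at the lowest value in 1 library labelled PD-1 KO and lost its call without replicate 3 of the PD-1 KO-labelled libraries. The precursor higher by most was C1ql1, a secreted C1q-like protein, at 1.95 ± 0.43.

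Markers of neurons, vessels and blood cells gave mixed differences. Of 12 neuron markers 4 were higher and 1 lower, against 2 and 5 with quantile normalization, so no direction holds across scalings; without replicate 2 of the WT-labelled libraries the counts were 1 and 1. Stmn2, a tubulin-binding protein of growing axons, was the member with the largest call at 1.69 ± 0.36. Of 9 endothelial, mural and fibroblast markers 4 were higher and 2 lower, and the differences ran from -1.52 to 4.31. Pdgfrb of pericytes stood at 1.79 ± 0.43 and Dcn, the fibroblast proteoglycan decorin, at 4.31 ± 0.61, with Dcn at the lowest value in 1 library labelled WT. Of the 18 markers of neutrophils, lymphocytes, platelets and red cells 3 were in the file and 2 were tested. Itga2b, a platelet integrin chain, was higher by 2.27 ± 0.54.

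The cells carried the defining genes of microglia in all 6 libraries: Csf1r, the receptor on which microglia depend for survival, read 11601, 11103 and 12045 in the WT-labelled libraries and 11005, 8801 and 9129.8 in the PD-1 KO-labelled ones and did not pass (-0.27 ± 0.11, adjusted p = 0.0726). Of 15 general microglia and macrophage markers 9 were lower and 1, Itgam, higher in PD-1 KO-labelled libraries, with a median of -0.42. Their summed value was 109469 (100687 to 120533) against 151501 (139851 to 158747), 1.38-fold higher in WT-labelled libraries. In bulk RNA, fewer cells of a type and less RNA per cell cannot be told apart. The higher astrocyte, myelin and cilia sums stand beside this difference and beside every gene group that follows, and their part in those results was not tested. Itgam, the complement receptor 3 chain CD11b that is used to sort microglia, read 2929.6, 1744 and 2595 in the WT-labelled libraries and 5122, 3755 and 4507 in the PD-1 KO-labelled ones and was higher by 0.90 ± 0.16. Tyrobp, the signalling adaptor of TREM2, read 12194, 17180.0 and 15624 in the WT-labelled libraries and 9285, 7659 and 8301 in the PD-1 KO-labelled ones and was lower (-0.82 ± 0.14). The groups did not overlap for either gene, so markers of the same cells moved in opposite directions.

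Homeostatic microglial genes, which mark the resting state in the brain, were split. Of 19 tested 6 were lower and 2 higher. P2ry12 (-0.01 ± 0.20, adjusted p = 0.979), Tmem119 (0.16 ± 0.26, 0.683) and Cx3cr1 (0.14 ± 0.19, 0.614), the ADP receptor, a membrane protein specific to microglia and the fractalkine receptor, did not pass, and their groups overlapped. Olfml3, a secreted olfactomedin-like protein of microglia (chromosome 3, 103722222 to 103738001, GRCm38), read 653, 533 and 769.9 in the WT-labelled libraries and 26.7, 46.01 and 28.7 in the PD-1 KO-labelled ones. It was 19.1-fold higher in WT-labelled libraries (-4.26 ± 0.22, adjusted p = 6.53e-14), the largest decrease among the genes that the rule for named genes selected. Fcrls, an Fc receptor-like scavenger protein, read 10118, 12343 and 12334 in the WT-labelled libraries and 3755, 2719 and 2951 in the PD-1 KO-labelled ones (-1.89 ± 0.18). Sparc, a matrix-binding protein that astrocytes also make, was on the higher side at 2.17 ± 0.24.

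Genes of the disease-associated state, the profile microglia take on around plaques and myelin debris, were lower more often than higher: of 24 tested 14 were lower and 5 higher, with a median of -0.41. With quantile normalization the counts were 8 and 5 and the median -0.02. Apoe, the main lipid carrier of the brain, read 159411, 233222 and 166908 in the WT-labelled libraries and 104608, 86235 and 85324 in the PD-1 KO-labelled ones (-1.004 ± 0.18). Gpnmb, a glycoprotein of lipid-laden phagocytes, read 45922, 45523 and 48411 in the WT-labelled libraries and 16184, 16696 and 18458 in the PD-1 KO-labelled ones (-1.45 ± 0.12), and the fatty acid carrier Fabp4 read 1120.3, 1548 and 1082 in the WT-labelled libraries and 478, 371 and 385 in the PD-1 KO-labelled ones (-1.59 ± 0.15). For these 3 genes each library labelled PD-1 KO lay below each labelled WT. Csf1, the growth factor that microglia and astrocytes make, was on the other side at 1.99 ± 0.16.

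Of 25 phagocytic receptors and bridging proteins 14 were lower and 4 higher in PD-1 KO-labelled libraries, with a median of -0.47 (12 and 4 with quantile normalization). Trem2, the lipid-sensing receptor linked to Alzheimer's disease, read 14590.3, 23493 and 17655 in the WT-labelled libraries and 11970.1, 10349 and 10736 in the PD-1 KO-labelled ones (-0.73 ± 0.15, adjusted p = 3.71e-04). Clec7a, the beta-glucan receptor dectin-1, read 5846, 6957 and 6688 in the WT-labelled libraries and 3514, 2888 and 3149.7 in the PD-1 KO-labelled ones (-1.03 ± 0.13). The members higher were Marco, a scavenger receptor (1.87 ± 0.24), Megf10, an engulfment receptor that astrocytes use (1.94 ± 0.33), Axl, a receptor for dying cells (0.68 ± 0.12), and Scarb2 (0.30 ± 0.10), the last of which was not called without any 1 of 3 of the libraries. Axl thus differed in direction from its relative Mertk (-0.58 ± 0.13) and from their shared ligand Gas6 (-0.81 ± 0.14).

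Lysosomal enzymes and membrane proteins were lower together. Of 37 tested 30 were lower and 3 higher, and 28 to 30 were lower whichever library was left out. With quantile normalization 20 were lower, and the median moved from -0.52 to -0.27. Hexa, an enzyme of ganglioside breakdown, read 22671, 30853 and 25434 in the WT-labelled libraries and 14613, 12346 and 13225 in the PD-1 KO-labelled ones. Its difference of -0.97 ± 0.13 was called under both scalings. The proteases Ctsb (-0.70 ± 0.16) and Ctsd (-0.58 ± 0.16) and the activator protein Psap (-0.63 ± 0.12) were not called with quantile normalization. The 3 members on the higher side were Ctsl (0.47 ± 0.11), Ctsk (1.40 ± 0.50, not called without any 1 of 5 of the 6 libraries, or with quantile normalization, at 0.26) and Ctse. Ctse, cathepsin E of endosomes, read 15.8, 14.9 and 20.01 in the WT-labelled libraries and 609, 423 and 508 in the PD-1 KO-labelled ones, a 28.7-fold difference in the direction opposite to most of the list.

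**Figure D2:**
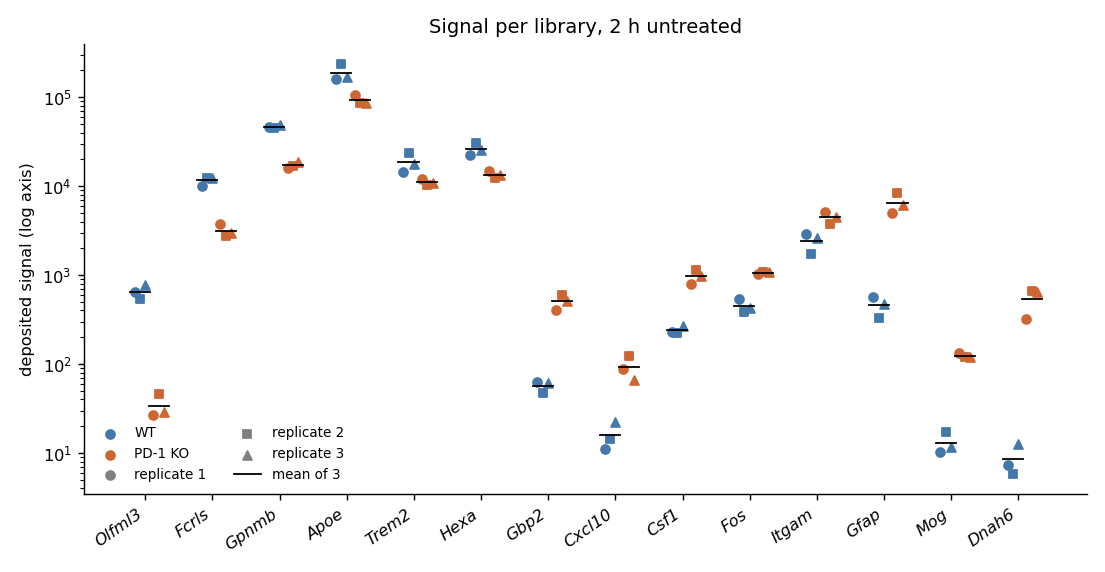
Deposited signal of 14 genes in each of the 6 libraries on a log axis, with WT-labelled libraries in blue and PD-1 KO in orange, 1 symbol shape per replicate and a bar at the mean of 3. For each of these genes the groups do not overlap: Olfml3 to Hexa lie lower in the PD-1 KO-labelled libraries, and Gbp2 to Dnah6 lie higher.

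Among called genes whose groups did not overlap and whose mean lay in the upper 60%, the 10 largest decreases held, besides Olfml3 and Fcrls, secreted factors, macrophage genes and members of a gene cluster. Igf2, a fetal growth factor, read 255, 317 and 602 in the WT-labelled libraries and 50.4, 50.1 and 49.1 in the PD-1 KO-labelled ones (-2.85 ± 0.49). Cd5l, a secreted macrophage protein that limits apoptosis, stood at -2.05 ± 0.23, the Wnt inhibitor Dkk2 at -2.45 ± 0.22 and C2, the complement protease, at -2.08 ± 0.22. Cd300ld and AF251705, which encode receptors of the CD300 family on myeloid cells, stood at -2.67 ± 0.16 and -2.76 ± 0.11. Dynlt1b (-2.08 ± 0.18) and Tmem181b-ps (-2.01 ± 0.19) completed the 10. Members of the CD300 family, Dynlt1b and Tmem181b-ps have close copies in the mouse genome that could share reads, so their values are uncertain.

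Neighbouring CD300 genes differed in opposite directions. Cd300lf (chromosome 11, 115116214 to 115133992, GRCm38), an inhibitory receptor for phospholipids, read 10.2, 17.6 and 16.9 in the WT-labelled libraries and 429, 332 and 397 in the PD-1 KO-labelled ones, a 24.8-fold increase (4.64 ± 0.21). Cd300ld (chromosome 11, 114982274 to 114989922), an activating member, read 578, 494 and 673 in the WT-labelled libraries and 88.9, 76.4 and 106 in the PD-1 KO-labelled ones (-2.67 ± 0.16). Cd300lb stood at -1.09 ± 0.09 and Cd300a at -0.34 ± 0.12, which was not called without any 1 of 5 of the libraries or with quantile normalization. On the far side of Cd300lf, the membrane protein gene Tmem104 stood at -1.79 ± 0.10, the acetyltransferase gene Nat9 at -1.43 ± 0.17 and the scaffold gene Slc9a3r1 at -0.997 ± 0.11. Of 26 other tested genes that the annotation places within 500 kb of Tmem104, 5 were higher and 10 lower, beside the 32.2% called over all genes; this region was singled out after its values were seen.

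Genes of the protein synthesis machinery were lower in PD-1 KO-labelled libraries by small and even amounts. Of 76 tested genes of cytosolic ribosomal proteins 74 were lower and 0 higher (Rpl24 and Rpl34 were not called), with a median of -0.59, or 51 lower and a median of -0.38 with quantile normalization. Pseudogene copies of these genes can share their reads. Many mammalian ribosomal protein transcripts begin with a C followed by a run of pyrimidines, the 5′ terminal oligopyrimidine tract through which growth signalling sets their translation. The starts of 2 of the genes, in RefSeq's GRCm38.p6, show such a tract. Each line holds the 20 bases before and the 10 bases after the transcript start, with the first 5 transcribed bases in capitals, at chr16:33056462-33056491 (plus strand) for Rpl35a and chr3:90213639-90213668 (minus strand) for Rps27.
Rpl35a: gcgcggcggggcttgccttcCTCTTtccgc
Rps27: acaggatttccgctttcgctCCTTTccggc
A C followed by 4 pyrimidines stood at the annotated start of 13 of 56 ribosomal protein genes with an entry (23.2%) and of 316 of 10418 tested genes with one (3.03%). A match describes the letters at the annotated start and is no measure of translation, and start sites off by 1 base would miss it.

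Rpl35a, of the large subunit, read 1562, 2494 and 2124 in the WT-labelled libraries and 1225, 1246 and 1062 in the PD-1 KO-labelled ones (-0.78 ± 0.15), and Rps27, of the small subunit, read 1701, 3298 and 2316 in the WT-labelled libraries and 1571, 1422 and 1388 in the PD-1 KO-labelled ones (-0.69 ± 0.17). Rplp2, of the acidic stalk, read 4016, 7175 and 4749 in the WT-labelled libraries and 3096, 2907 and 2789.5 in the PD-1 KO-labelled ones (-0.82 ± 0.17). In each case the PD-1 KO-labelled libraries lay close to each other, while the WT-labelled ones spread widely, with replicate 2 at the top. Ribosomal protein genes took 3.24%, 4.92% and 3.96% of all signal in the WT-labelled libraries and 3.07%, 2.96% and 2.92% in the PD-1 KO-labelled ones. Replicate 2 of the WT-labelled libraries was the highest of the 6 libraries for 75 of the 76 genes, and replicate 1 the lowest WT library for 76 of 76. Without replicate 2, 44 genes were called lower with a median of -0.41, and without replicate 1 the count was 76 with a median of -0.77. Lower calls over all genes moved as well, from 1832 to 1032 without replicate 2 and to 2047 without replicate 1.

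In 2 related groups the counts rested on the same library. Of 79 nuclear-encoded subunits of oxidative phosphorylation, the mitochondrial respiratory chain and ATP synthase, 38 were lower and 0 higher with a median of -0.35; without replicate 2 of the WT-labelled libraries the count was 2 with a median of -0.22, and without replicate 1 it was 66. Leaving out replicate 3 of the WT-labelled libraries gave 24, and leaving out replicate 2 or 3 of the PD-1 KO-labelled ones gave 17 or 16. Ndufa6 (-0.62 ± 0.12) and Ndufa1 (-0.62 ± 0.14), small subunits of complex I, kept their calls in each case. Of 38 proteasome subunits 12 were lower and 0 higher; the count was 4 without that replicate 2, 26 without replicate 1, and 7 without replicate 3 of the PD-1 KO-labelled libraries. Psmb6, a catalytic subunit, stood at -0.63 ± 0.13, and Psmb8 and Psmb10, which replace catalytic subunits in the immunoproteasome, at -0.60 ± 0.16 and -0.63 ± 0.15. The other conditions gave the ribosomal list medians of 0.04 at 0 h and -0.02 at 8 h, and -0.47 at 2 h with amyloid-beta. When the difference between conditions was itself tested, 1 of the 76 genes was called against 0 h and 0 against 8 h.

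**Figure D3:**
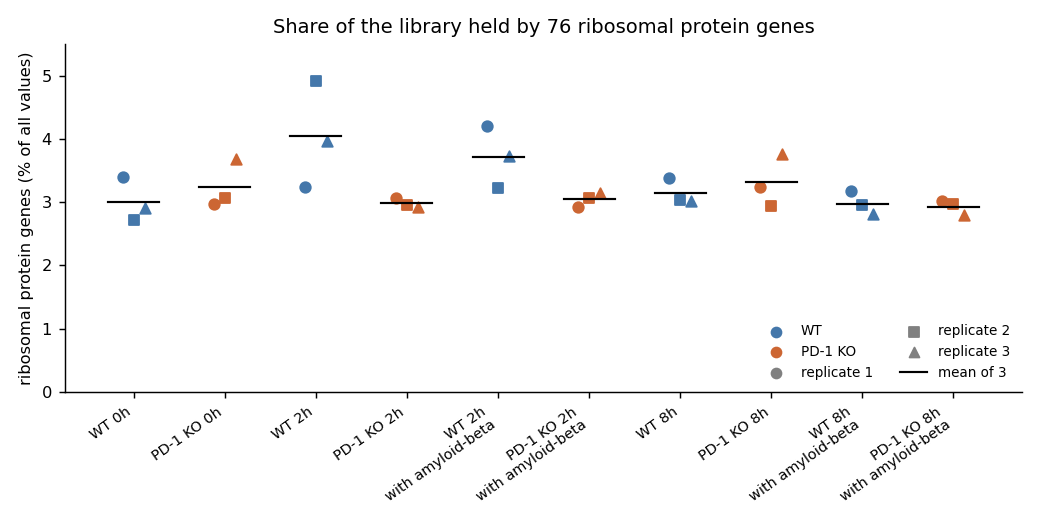
Share of all deposited signal held by 76 cytosolic ribosomal protein genes in each of the 30 libraries, in percent, by labelled genotype (blue WT, orange PD-1 KO), time and treatment, with 1 symbol shape per replicate and a bar at the mean of 3. The 3 WT-labelled libraries at 2 h without amyloid-beta run from 3.24% to 4.92%, while the PD-1 KO-labelled ones lie between 2.92% and 3.07%.

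Interferon-stimulated genes encode antiviral proteins that rise when type I interferon acts on a cell, and many of them carry the element GAAANNGAA or a variant of it near their start. The letters GAAANNGAA, or TTCNNTTTC on the other strand, occurred in the 250 bases before an annotated start in 9 of 19 antiviral genes with an entry (47.4%), in 7 of 7 guanylate-binding protein and immunity-related GTPase genes, and in 780 of 10418 tested genes (7.49%). In the antiviral list the called members were lower and in the GTPase list higher, with most members of both not called, so 50 bases around the matches are shown for members of both, in RefSeq's GRCm38.p6 and with the matches in capitals. The stretches are chr8:71537567-71537616 (minus strand, 144 to 94 bases before the start) for Bst2, chr5:120907526-120907575 (minus strand, the last 50 bases before the start) for Oas1a, and chr3:142559986-142560035 (plus strand, 58 to 8 bases before the start) for Gbp3.
Bst2: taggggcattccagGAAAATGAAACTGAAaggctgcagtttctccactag
Oas1a: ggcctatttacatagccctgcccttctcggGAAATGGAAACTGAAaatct
Gbp3: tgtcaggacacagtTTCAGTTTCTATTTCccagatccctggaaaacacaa
All 3 hold 2 overlapping matches. A match describes letters in the window and shows no binding.

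Of 28 interferon-stimulated antiviral genes 9 were lower and 0 higher in PD-1 KO-labelled libraries, with a median of -0.54 and 25 of 28 differences below 0. Bst2, tetherin, which holds budding virus at the cell surface, read 1316, 2230.3 and 1828 in the WT-labelled libraries and 1166, 820.0 and 858 in the PD-1 KO-labelled ones (-0.90 ± 0.18). Oas1a, an enzyme that activates the RNA-degrading RNase L, read 749, 833 and 1021 in the WT-labelled libraries and 633, 366 and 473 in the PD-1 KO-labelled ones (-0.85 ± 0.18). Usp18 (-1.03 ± 0.28), which removes ISG15 from proteins, and Zbp1 (-1.17 ± 0.32), a sensor of Z-form nucleic acid, were lower as well. Ifit1 (0.27 ± 0.39), Rsad2 (-0.69 ± 0.40) and Isg15 (-0.57 ± 0.29), which are often among the most induced members, did not pass. The number of lower members was 6 without replicate 2 of the PD-1 KO-labelled libraries and also without replicate 3 of the WT-labelled ones. It was at most 12 without any other library, 15 with quantile normalization and 21 with array weights. Lower calls over all genes also rose, from 1832 to 2851 with quantile normalization and to 3141 with array weights. They fell to 1236 without replicate 2 of the PD-1 KO-labelled libraries and to 1482 without replicate 3 of the WT-labelled ones.

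Receptors and factors upstream of these genes differed by small amounts. Of 19 interferon receptors, STATs and IRFs 11 were lower and 2 higher, with a median of -0.28, and 5 were lower without replicate 2 of the PD-1 KO-labelled libraries, against 7 without replicate 3 of either group. Stat2, a transcription factor of the type I interferon response, read 690.0, 535 and 700.4 in the WT-labelled libraries and 498, 411 and 450.2 in the PD-1 KO-labelled ones (-0.50 ± 0.13), and Ifnar2, a chain of the type I receptor, stood at -0.40 ± 0.09. The higher members were Stat3 (0.51 ± 0.09), which carries signals of the interleukin-6 family, and the feedback inhibitor Socs3 (0.84 ± 0.27, not called without either of 2 libraries or with quantile normalization).

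Guanylate-binding proteins attack the membranes around intracellular microbes and respond to interferon-gamma. Of 11 genes in that list 5 were higher and 0 lower (5 and 2 with quantile normalization). Gbp2 read 62.1, 47.1 and 61.1 in the WT-labelled libraries and 408, 597 and 516 in the PD-1 KO-labelled ones (3.13 ± 0.21) and Gbp5 read 7.42, 5.86 and 26.3 in the WT-labelled libraries and 95.9, 161 and 119 in the PD-1 KO-labelled ones (3.41 ± 0.44). Gbp3 stood at 2.04 ± 0.33, Gbp6 at 2.90 ± 0.32 and Gbp7 at 1.26 ± 0.31. These 5 genes share long stretches of sequence with their neighbours, which makes the split between them uncertain. The related Igtp (0.26 ± 0.15), Irgm1 (-0.25 ± 0.14) and Irgm2 (0.18 ± 0.17) did not pass.

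Of 17 tested genes of MHC class I and peptide loading 9 were lower and 0 higher, with a median of -0.31, and 6 to 11 were lower when libraries were left out. H2-T23 (-0.77 ± 0.20), a non-classical class I molecule, Nlrc5 (-0.62 ± 0.16), the class I transactivator, and Tap1 (-0.42 ± 0.12), a peptide transporter chain, kept their calls in each case. B2m, the light chain of all class I molecules, stood at -0.57 ± 0.12 and was not called with quantile normalization. H2-Q6 (-2.85 ± 0.88) rests on low values and on 1 library at the lowest value, and lost its call without either of 2 libraries. Of 10 class II and costimulation genes 1, H2-DMb1, was lower (-0.64 ± 0.17) and 0 higher.

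Of 15 chemokines 7 were higher in PD-1 KO-labelled libraries, 0 lower and 8 not called, with a median of 1.15 (with quantile normalization 6 were higher, 1 was lower and the median was 0.34). Cxcl10, which draws T cells, read 11.1, 14.2 and 22.1 in the WT-labelled libraries and 87.96, 124 and 65.5 in the PD-1 KO-labelled ones (2.48 ± 0.26). Cxcl5, which draws neutrophils, read 9.27, 7.89 and 15.8 in the WT-labelled libraries and 77.1, 88.7 and 108 in the PD-1 KO-labelled ones (2.99 ± 0.42), and Ccl7, which draws monocytes, read 2.78, 2.70 and 2.11 in the WT-labelled libraries and 15.8, 23.8 and 10.2 in the PD-1 KO-labelled ones (2.25 ± 0.52). The groups did not overlap for these 3 genes, but Ccl7 was not called with quantile normalization, at 1.23. Ccl3 (0.26 ± 0.15), Ccl4 (-0.42 ± 0.23) and Cxcl16 (-0.05 ± 0.15) did not pass. Astrocytes also make several of these chemokines.

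Cytokine genes went both ways. Of 16 tested 3 were higher (Tnf, Csf1 and Lif, the last not called with quantile normalization) and 6 lower, and without replicate 2 of the WT-labelled libraries 2 were higher and 2 lower. Tnf read 501, 519 and 415 in the WT-labelled libraries and 754, 694 and 630.3 in the PD-1 KO-labelled ones (0.54 ± 0.15). Il1b read 30.6, 12.8 and 13.7 in the WT-labelled libraries and 37.6, 27.1 and 18.4 in the PD-1 KO-labelled ones and did not pass (0.57 ± 0.33, adjusted p = 0.197). Il15 (-0.82 ± 0.22), which sustains lymphocytes, and Casp1 (-0.57 ± 0.12), the protease that matures interleukin-1 beta, were lower. Of 20 NF-kB subunits and inhibitors 8 were higher and 2 lower. Traf1, an adaptor induced by NF-kB, read 13.9, 9.01 and 7.37 in the WT-labelled libraries and 63.3, 126 and 108 in the PD-1 KO-labelled ones (3.16 ± 0.45), and the feedback inhibitors Tnip3 and Nfkbia stood at 1.92 ± 0.15 and 0.41 ± 0.11. The subunits Rela (-0.20 ± 0.08) and Nfkb1 (-0.06 ± 0.09) did not pass.

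Receptors and early transcription factors showed no shared direction. Of 20 Toll-like receptors and adaptors 5 were lower and 1, Tlr2 (0.42 ± 0.10), higher, and the lower count fell to 2 without replicate 3 of the WT-labelled libraries. Tlr1, the partner of Tlr2 in sensing lipopeptides, stood at -0.72 ± 0.17. Of 24 immediate early genes 7 were higher and 4 lower. Fos, a subunit of AP-1, read 543, 388 and 432 in the WT-labelled libraries and 1018, 1085 and 1097 in the PD-1 KO-labelled ones (1.24 ± 0.15), while Egr1, induced by many of the same stimuli, stood at -0.87 ± 0.11, on the lower side. Nr4a3, an orphan nuclear receptor, was higher by 2.04 ± 0.43.

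Complement genes split by component. Of 19 tested 8 were higher and 5 lower. The gene C4b, of complement component 4, read 38.9, 19.8 and 41.1 in the WT-labelled libraries and 443, 836 and 739 in the PD-1 KO-labelled ones (4.31 ± 0.44). C3, which a fragment of component 4 helps to cleave, stood at 3.62 ± 0.23. The inhibitors Serping1 and Cd55, which act on the first component and on the convertases, stood at 4.09 ± 0.48 and 3.76 ± 0.51. On the other side were the chains of the recognition molecule C1q, which microglia make in the brain: C1qa read 10439, 13245 and 12009.5 in the WT-labelled libraries and 8203, 6246 and 6375 in the PD-1 KO-labelled ones (-0.78 ± 0.18), and C1qb and C1qc stood at -0.85 ± 0.18 and -0.83 ± 0.18. C2, whose fragment joins that of component 4 in a convertase, stood at -2.08 ± 0.22.

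Of 25 matrix proteins and proteases 10 were higher and 4 lower, with a median of 0.71. Timp1, an inhibitor of matrix proteases, stood at 2.15 ± 0.40 and Fn1, fibronectin, at 1.61 ± 0.32. Mmp9, a gelatinase, read 49.2, 33.1 and 29.5 in the WT-labelled libraries and 158, 213 and 180.1 in the PD-1 KO-labelled ones (2.29 ± 0.20), and Mmp13, a collagenase, was lower at -1.47 ± 0.27. Of 9 checkpoint receptors and ligands 2 were higher, Pdcd1 itself and Pirb (0.32 ± 0.10), and 3 lower: Lgals9 (-0.89 ± 0.15), Lair1 (-0.59 ± 0.11) and Sirpa (-0.42 ± 0.13). Pirb lost its call without replicate 1 and Sirpa without replicate 2 of the PD-1 KO-labelled libraries, and Sirpa also with quantile normalization, at -0.022. Lgals9, galectin-9, a ligand of the receptor TIM-3, read 1208, 1183 and 1390.2 in the WT-labelled libraries and 856, 557 and 649 in the PD-1 KO-labelled ones.

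Metabolic and stress lists held calls in both directions with the authors' scaling. The NRF2 and glycolytic lists leaned further to the higher side with quantile normalization. Of 23 targets of NRF2, the factor that answers oxidative stress, 8 were higher and 3 lower, against 12 and 0 with quantile normalization. Slc7a11, the cystine importer, read 172, 89.9 and 151 in the WT-labelled libraries and 418, 615 and 634 in the PD-1 KO-labelled ones (2.04 ± 0.30), and Nqo1, a quinone reductase, stood at 1.34 ± 0.26; the modifier subunit of glutamate-cysteine ligase, Gclm, stood at 0.60 ± 0.11. Of 21 glycolytic genes 7 were higher and 4 lower (11 and 2 with quantile normalization), and the 2 largest differences were in isoforms common in astrocytes and neurons, Aldoc (1.27 ± 0.29) and Eno2 (1.28 ± 0.16). Of 22 genes of cholesterol synthesis 5 were higher and 4 lower, but 1 and 2 without replicate 2 of the WT-labelled libraries. Of 15 LXR targets and genes of cholesterol efflux 5 were higher and 6 lower, among them Ch25h (1.43 ± 0.22), which makes 25-hydroxycholesterol, and Apoc1 (-1.75 ± 0.25), a small apolipoprotein. Of 23 genes of the integrated and ER stress responses 3 were higher and 1 lower, of 17 heat shock genes 3 and 1, and of 30 cell cycle genes 1 and 2. Of the cell cycle genes, the replication helicase subunit Mcm6 stood apart at -1.51 ± 0.14.

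The same genotype comparison was made in the other 4 conditions, which share no library with this one. All comparisons come from the same fit, so their calls share 1 estimate of the spread per gene. Of the genes higher at 2 h without amyloid-beta, 1492 were also higher at 0 h (57.8% of the 2 h genes and 78.7% of those at 0 h), and 533 were lower in both (29.1% and 56.5%). With amyloid-beta at 2 h the shared genes were 2275 higher (88.2% and 74.6%) and 1377 lower (75.2% and 60.1%), and at 8 h without amyloid-beta 1897 (73.5% and 76.8%) and 562 (30.7% and 45.4%). At 8 h with amyloid-beta they were 2107 (81.7% and 69.7%) and 830 (45.3% and 51.8%). Over all 13722 genes, 18.8% were higher and 13.4% lower here. The counts were 1896 and 944 at 0 h and 3051 and 2290 at 2 h with amyloid-beta. At 8 h they were 2471 and 1237 without and 3023 and 1603 with amyloid-beta. Genes called in opposite directions numbered 20 against 0 h, 1 against 2 h with amyloid-beta, 6 against 8 h without and 14 against 8 h with amyloid-beta. In all 5 conditions 1256 genes were higher, 48.7% of those higher here, and 314 lower, 17.1% of those lower here.

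Whether the difference itself changed with time was tested within the same fit. Against 0 h, 101 genes (0.736%) had a different genotype difference, 47 more positive and 54 more negative at 2 h, and 1807 had an unadjusted p under 0.05. Leaving out 1 of the 12 libraries moved the count by over 1.5 times in all cases but replicate 1 of the PD-1 KO-labelled and replicate 3 of the WT-labelled libraries at 2 h: it was 15 without replicate 2 of the WT-labelled libraries at 0 h and 381 without replicate 1 of the PD-1 KO-labelled ones at 0 h. The genes named for this test kept their calls in all 23 alternative settings except where stated.

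**Figure D4:**
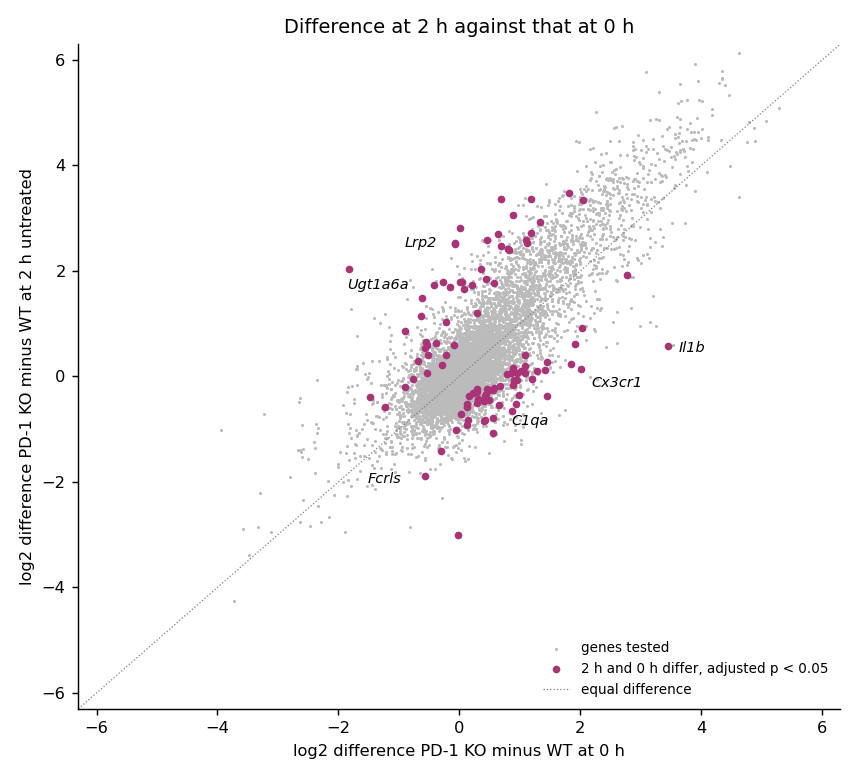
Genotype difference at 2 h without amyloid-beta (vertical) against that at 0 h (horizontal), as log2(value + 1), with 1 grey point per gene tested, the 101 genes whose differences at the 2 times differ past the threshold in purple, and a dotted line of equal difference. Cx3cr1 lies near 0 on the vertical axis with a difference of 2.005 at 0 h, and Lrp2 lies near 0 on the horizontal axis with 2.52 at 2 h.

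In 1 set of these genes the mean of the WT-labelled libraries was low at 0 h and higher at 2 h, while that of the PD-1 KO-labelled libraries varied by less. Cx3cr1, the fractalkine receptor, averaged 478 ± 131, 1598 ± 214 and 1056 ± 209 (SD, n = 3) at 0 h, 2 h and 8 h in WT-labelled libraries, and 1948 ± 671, 1758 ± 239 and 1992 ± 339 in the PD-1 KO-labelled ones. The genotype difference was 2.005 at 0 h and 0.14 at 2 h, and the change of -1.87 ± 0.26 had an adjusted p of 7.22e-04. Cd52, a small glycoprotein of leukocyte surfaces, followed the same course, at 560.2 ± 73.7, 1384 ± 259 and 1098 ± 179 against 2074 ± 694, 1622 ± 251 and 2248 ± 196, with a change of -1.60 ± 0.24. For these 2 genes the groups overlapped at 2 h.

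C1qa and Fcrls also had their highest WT mean at 2 h, and their genotype difference was more negative at 2 h than at 0 h. That of C1qa changed sign, while Fcrls had the lower mean in PD-1 KO-labelled libraries at both times. C1qa averaged 5468 ± 1507, 11898 ± 1407 and 7971 ± 1120.1 in WT-labelled libraries and 8129 ± 2705, 6941 ± 1095 and 7973 ± 1525 in the PD-1 KO-labelled ones, so its difference was 0.56 at 0 h and -0.78 at 2 h. Fcrls averaged 4772 ± 945, 11598 ± 1282 and 7612 ± 1410.1 against 3334 ± 1281, 3142 ± 544 and 3878 ± 567. The changes of -1.34 ± 0.25 and -1.32 ± 0.26 lost their calls without replicate 2 of the WT-labelled libraries at 0 h, without replicate 2 of the PD-1 KO-labelled ones at 2 h, and when only the 4 groups were fitted.

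In another set the mean of the WT-labelled libraries was lower at 2 h than at 0 h. Lrp2, the endocytic receptor megalin, averaged 233 ± 103, 60.8 ± 23.5 and 137 ± 17.1 in WT-labelled libraries and 212 ± 50.3, 335 ± 52.3 and 289 ± 33.7 in the PD-1 KO-labelled ones. Its difference went from -0.07 to 2.52 (change 2.59 ± 0.46, adjusted p = 0.00653). Gpc4, a heparan sulfate proteoglycan that astrocytes release, averaged 197 ± 34.9, 60.99 ± 5.08 and 72.7 ± 20.1 against 165 ± 46.4, 214 ± 32.1 and 191 ± 57.1 (change 2.06 ± 0.38). Ugt1a6a, a glucuronosyltransferase whose gene shares exons with others of its locus, averaged 239 ± 101, 54.99 ± 8.73 and 177 ± 61.9 against 170.2 ± 42.8, 186 ± 36.6 and 175 ± 23.6 (change 2.15 ± 0.36). In all 3 genes the genotypes lay close together at 0 h and apart at 2 h. Acta2, smooth muscle actin, averaged 929.7 ± 237, 357 ± 75.5 and 296 ± 21.3 against 825 ± 88.1, 1145 ± 143 and 865 ± 406, with a change of 1.84 ± 0.34 that lost its call without replicate 2 of the WT-labelled libraries at 0 h. Tnc, the matrix protein tenascin C, averaged 784 ± 228, 256 ± 101 and 391 ± 145 against 1213 ± 286, 1593 ± 229 and 792 ± 72.1, and its change of 2.05 ± 0.42 was called in 18 of the 23 settings.

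**Figure D5:**
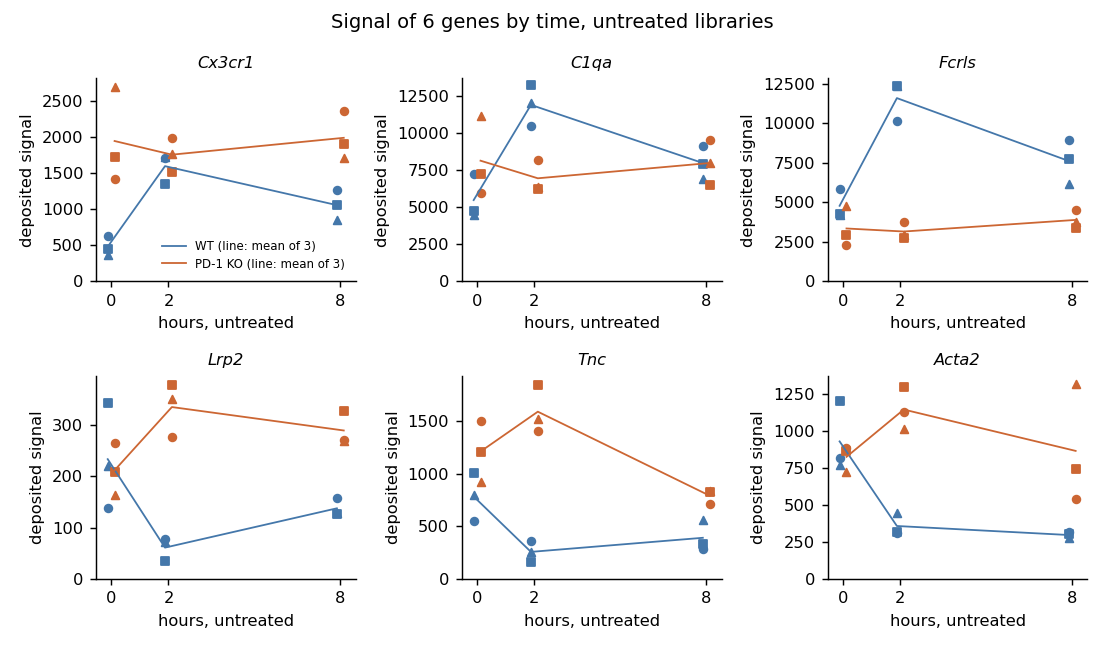
Deposited signal of 6 genes at 0 h, 2 h and 8 h without amyloid-beta, on linear axes that start at 0, with 1 symbol per library (blue WT, orange PD-1 KO, as labelled) and lines through the means of 3. The WT line of Cx3cr1, C1qa and Fcrls is highest at 2 h and that of Lrp2 and Tnc lowest, while the PD-1 KO means of Cx3cr1 stay between 1758 and 1992.

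Il1b stood between the sets. It averaged 12.6 ± 6.18, 19.05 ± 10.02 and 63.02 ± 9.04 in WT-labelled libraries and 142 ± 38.6, 27.7 ± 9.58 and 266 ± 56.5 in the PD-1 KO-labelled ones, so that the PD-1 KO-labelled libraries were lower at 2 h than at 0 h or 8 h. Its difference was 3.44 at 0 h, 0.57 at 2 h and 2.05 at 8 h. The change from 0 h, -2.87 ± 0.47, had an adjusted p of 0.00308 and was called in 21 of the 23 settings, and that from 8 h, -1.48 ± 0.47, did not pass (adjusted p = 0.2).

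Against 8 h without amyloid-beta, 3 genes (0.0219%) had a different genotype difference, and 1902 had an unadjusted p under 0.05. Slc43a3, a purine transporter, averaged 76.03 ± 4.68 and 239 ± 86.8 at 2 h and 8 h in WT-labelled libraries and 264 ± 50.1 and 224 ± 17.2 in the PD-1 KO-labelled ones (change 1.81 ± 0.27). Rnf144b, a ubiquitin ligase, averaged 577 ± 67.2 and 544 ± 68.4 against 614 ± 23.8 and 302 ± 36.97 (change 0.94 ± 0.15). Both were called in 22 of 23 settings. Cd83, an activation marker, averaged 3118 ± 412 and 2604 ± 226 against 1642 ± 272 and 2773 ± 332 (change -1.02 ± 0.19) and was called in 11 of 23 settings. The count was 0 when only the 4 groups were fitted in limma and 151 without replicate 1 of the WT-labelled libraries at 2 h, 17 without replicate 1 of those at 8 h and 8 without replicate 3 of the PD-1 KO-labelled ones at 8 h. The 8 h libraries carry a separate run of numbers in their labels, and whether they were handled apart is not stated.

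Against 2 h with amyloid-beta, 7 genes (0.051%) had a different genotype difference, and 663 had an unadjusted p under 0.05. All 7 are interferon-stimulated, and their genotype difference was further below 0 with amyloid-beta than without it. Oas3 (-0.62) and Ifi27l2a (-0.59) were not called without it. Of the others, Irf7 lost its call without amyloid-beta in 3 of 17 settings and Oasl2 in 2, while Ly6e, Oas1a and Zbp1 kept theirs. The difference of Irf7, the factor that amplifies interferon production, was -0.78 without and -3.03 with amyloid-beta, and the change was called in 22 of 23 settings. That of Oas1a was -0.85 and -2.11, but its change was called in 10 of 23 settings and lost with quantile normalization, TMM factors and only the groups compared, among others. The change of Oas3 was called in 22 of the settings, that of Oasl2 in 19, of Ifi27l2a in 18, of Ly6e in 14 and of Zbp1 in 11. Leaving out single libraries gave counts of 2 to 30, and the count was 0 with voom, limma's method for counts, on the recovered reads. The lysosomal, astrocyte and cilia lists had no member among the 7 genes, but with 0.051% of genes called this says little about them. Their medians were -0.52, 2.55 and 4.82 without amyloid-beta and -0.53, 2.95 and 5.66 with it. Whether the list medians differed between the conditions was not tested.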

How the data were processed

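The table holds, per gene and library, a signal that the authors made by dividing gene counts by a size factor per library and setting values below 1 to 1, as the deposited values themselves show. Tools listed in the submitters' processing notes are R 3.0.2, Partek 6.6, HISAT 0.1.5 and DESeq2, with mm10 as the build. How reads were assigned to genes is not given in the sources used here. Values of 13722 of 13788 genes (at least 10 in 3 of 30 libraries) were analysed as log2(value + 1) with limma 3.58.1 in R 4.3.3, with 1 mean for each of 10 groups, 20 residual degrees of freedom and an intensity trend. P-values were two-sided; each comparison had its own Benjamini-Hochberg adjustment, and 0.05 was the threshold. Because the floor hides low counts, no count model was the main test. The p-values rest on the spread between libraries, which may be technical.

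The comparison, the lists and the rule that selects named genes were set with earlier results of these data known. The rule took the 10 largest differences in each direction among called, non-overlapping genes in the upper 60% by mean, 3 called members of each list, a few fixed genes and up to 6 genes per direction of each test between conditions. The text gives part of them, and other list members are named as examples chosen after their values were seen. The steps were tested on simulated data for this comparison, with 13564 genes. In these data 88 of 100 changes of 2-fold and 100 of 100 of 4-fold were recovered, with 7 false calls among 195. The deposited values gave 4412 calls, and replicate 2 of the WT-labelled libraries was highest for 75 of 76 ribosomal protein genes. Whether the rates of recovery and false calls hold for such values was not tested. Positions came from the GENCODE annotation of GRCm38, which placed 13200 genes, and sequences from RefSeq's GRCm38.p6 promoter table, which held 10418 of the tested genes. The alternatives were pseudocounts of 0 and 10, a low-value filter of 50 or none, quantile normalization, TMM factors, only the groups compared, no trend, robust estimation, array weights, voom on recovered reads, and leaving out each library. Figures were drawn with matplotlib 3.10.9.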

Additional observations from a re-analysis of the deposited data

Results flagged for a closer look

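Each of the following genes had a genotype difference at 2 h without amyloid-beta that differed from that in another condition past the threshold of limma's test of the difference itself. Against 0 h the difference of differences was 1.84 for Acta2, 2.06 for Gpc4, 2.59 for Lrp2, 1.78 for Prss23, 2.05 for Tnc and 2.15 for Ugt1a6a, all more positive at 2 h. It was -1.45 for Aif1, -1.34 for C1qa, -1.60 for Cd52, -1.87 for Cx3cr1, -1.32 for Fcrls and -1.33 for Fgd2, all more negative at 2 h. Acta2, Aif1, C1qa, Fcrls, Fgd2, Prss23 and Tnc lost the call in at least 1 of 23 alternative settings.

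Against 8 h the values were -1.02 for Cd83, 0.94 for Rnf144b and 1.81 for Slc43a3. Against 2 h with amyloid-beta they were 2.64 for Ifi27l2a, 2.24 for Irf7, 1.70 for Ly6e, 1.26 for Oas1a and 2.06 for Oasl2. Each of these 8 lost its call in at least 1 of the 23 settings. Cd83 was called in 11, Rnf144b and Slc43a3 in 22, Ifi27l2a in 18, Irf7 in 22, Ly6e in 14, Oas1a in 10 and Oasl2 in 19. Groups of 3 libraries are too small for a test of single outlying libraries.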

How the results depend on the processing

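No paired analysis was possible because the labels give library numbers but no replicate numbers, and those used here follow the order of the libraries. A quasi-likelihood count test planned as an alternative was not run, because the floor at 1 hides low counts and the deposited values are not counts.

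The number of genes that differed at 2 h (4412) was 6749 with array weights, within 1.5 times in the other settings, and 3008 to 4723 when libraries were left out. The number that differed from 0 h (101) was 36 with only the groups compared, 38 without a trend, 1327 with array weights, and 15 to 381 when libraries were left out. The number that differed from 8 h (3) was 16 with quantile normalization, 0 with only the groups compared, 1279 with array weights, 16 with voom, and 2 to 151 when libraries were left out. The number that differed from 2 h with amyloid-beta (7) was 2 without a trend, 477 with array weights, 0 with voom, and 2 to 30 when libraries were left out. The cause was not tested.

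Of 139 named genes 130 were called; 107 kept their call in all 17 settings, 23 lost it at least once and 0 changed sign while called. The median of the LXR list (0.10) was -0.021 with quantile normalization, -0.028 with array weights and -0.023 with voom, and ran from -0.061 (without replicate 3 of the PD-1 KO-labelled libraries) to 0.136 when libraries were left out. Depth limits genes near the floor, whose folds the pseudocount sets in part.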
